A study of Mus musculus with 4 samples.

Results

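Ribosome biogenesis factors are the proteins that make and assemble ribosomes without being part of the finished particle. The set described here was a list of 45 named genes for RNA polymerase I and its initiation factors, for assembly of the small (40S) and large (60S) ribosomal subunits, for the small nucleolar ribonucleoproteins that modify ribosomal RNA, and for the body of the nucleolus. Of the 45 genes 44 were measured among 18193 genes on the array, each read by the probe set of its single symbol with the highest mean. Mrto4 had no probe set of its own, as the 1 probe set that names it names other genes too. The genes were listed by function, and the rule uses no measured value other than the mean that chose a gene's probe set.

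The cells were clones C1 and E1 of primary mammary epithelial cells from Deaf-1-null mouse tissue, made immortal with a retrovirus for the E6/E7 proteins of human papilloma virus HPV16. Each clone received either an empty retrovirus (control) or a retrovirus that encodes Deaf-1, a transcription factor, and was studied after 48 hours of selection in puromycin. There was 1 array for each clone and retrovirus, so that the Deaf-1 and control groups held 2 arrays each. All 4 cultures were thus of the Deaf-1-null genotype and carried E6/E7, and the values speak for 2 clones rather than for mice. The study's methods give the source as 8-week-old female mice, while its results speak of a single mouse.

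Ribosome production starts in the nucleolus, where RNA polymerase I transcribes the long precursor of most ribosomal RNAs. The small-subunit processome and the box C/D and box H/ACA particles fold, cut and modify that precursor, and separate sets of factors carry the small and the large subunit to the cytoplasm. Growing and dividing cells express these genes strongly, and the transcription factor Myc is a well-known activator of many of them through E-box sites. In the mammary gland the demand for ribosomes follows cell growth and milk protein synthesis.

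On all 4 arrays the 44 factors lay above a background level of 3.83 (log2), taken from probe sets for olfactory receptors. Deaf1 RNA was higher with its retrovirus in both clones, by 1.72 (log2) in C1 and 1.34 in E1. The Deaf1 probe set also read above background in the control cultures of the null clones (5.01 in C1 and 4.91 in E1), and where it lies relative to the deleted part of the gene was not examined. By their means, 3 of 8 luminal, 3 of 7 basal and 8 of 8 fibroblast markers were above background. Krt18, Krt14, Krt17 and Cdh1 were below it on all 4 arrays and Krt8 on both C1 arrays, while Krt19 (4.37 to 4.62) and Krt5 (4.45 to 4.74) were above it on all 4. The other luminal markers above background were Epcam (mean 6.04, log2) and Cldn3 (mean 5.49). The other basal markers above background were Acta2 (mean 11.6) and Trp63 (mean 4.04). The adipocyte markers Fabp4 and Pparg differed between clones, with Fabp4 at 2.57 and 3.77 on the C1 arrays and at 10.6 on both E1 arrays. Of the 4 adipocyte markers measured, however, 2 were higher in E1 and 2 lower. The part that these differences play in the values below was not tested. A lower value in such RNA can stand for fewer cells that express a gene or for less RNA in each cell, which cannot be told apart.

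With Deaf-1, 23 of 44 factors (52.3%) were lower in both clones and 1 (2.27%), Wdr12, was higher in both. The changes were small, with a median of -0.12 (log2) in C1 and -0.079 in E1. Over all genes 20.2% were lower in both clones and 17.6% were higher in both, and the medians were -0.0028 in C1 and -0.0083 in E1. Among genes with a mean of at least 6 (log2), 24.6% were lower in both clones and 12.9% higher, against 53.7% and 2.44% of the 41 factors at that level. The medians at that level were 0.039 in C1 and -0.092 in E1 for genes, and -0.12 and -0.085 for the factors. In E1 the median of the factors was thus near that of genes of such a level. In C1 alone 34 factors (77.3%) were lower, beside 50.5% of all genes and 40.5% of those with a mean of at least 6. In E1 alone 32 (72.7%) were lower, beside 51.4% of all genes but 71.0% of those with a mean of at least 6, so that the share in E1 was near that of other genes of such a level. The remaining 20 factors (45.5%) moved in opposite directions in the clones, as did 60.8% of all genes. No factor reached an unadjusted p under 0.01 in limma's comparison of Deaf-1 with control, and 1 (Rrp12) reached a p under 0.05. Across all genes 0.0275% reached the former threshold and 0.407% the latter. The lean to lower values rested on C1 under some scalings: after a further quantile normalization or cyclic loess of the arrays, 16 or 17 factors were lower in both clones and 4 or 3 higher, and the median change in E1 became 0.011 or 0.0026, while that in C1 became -0.17 or -0.15.

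**Figure D1:**
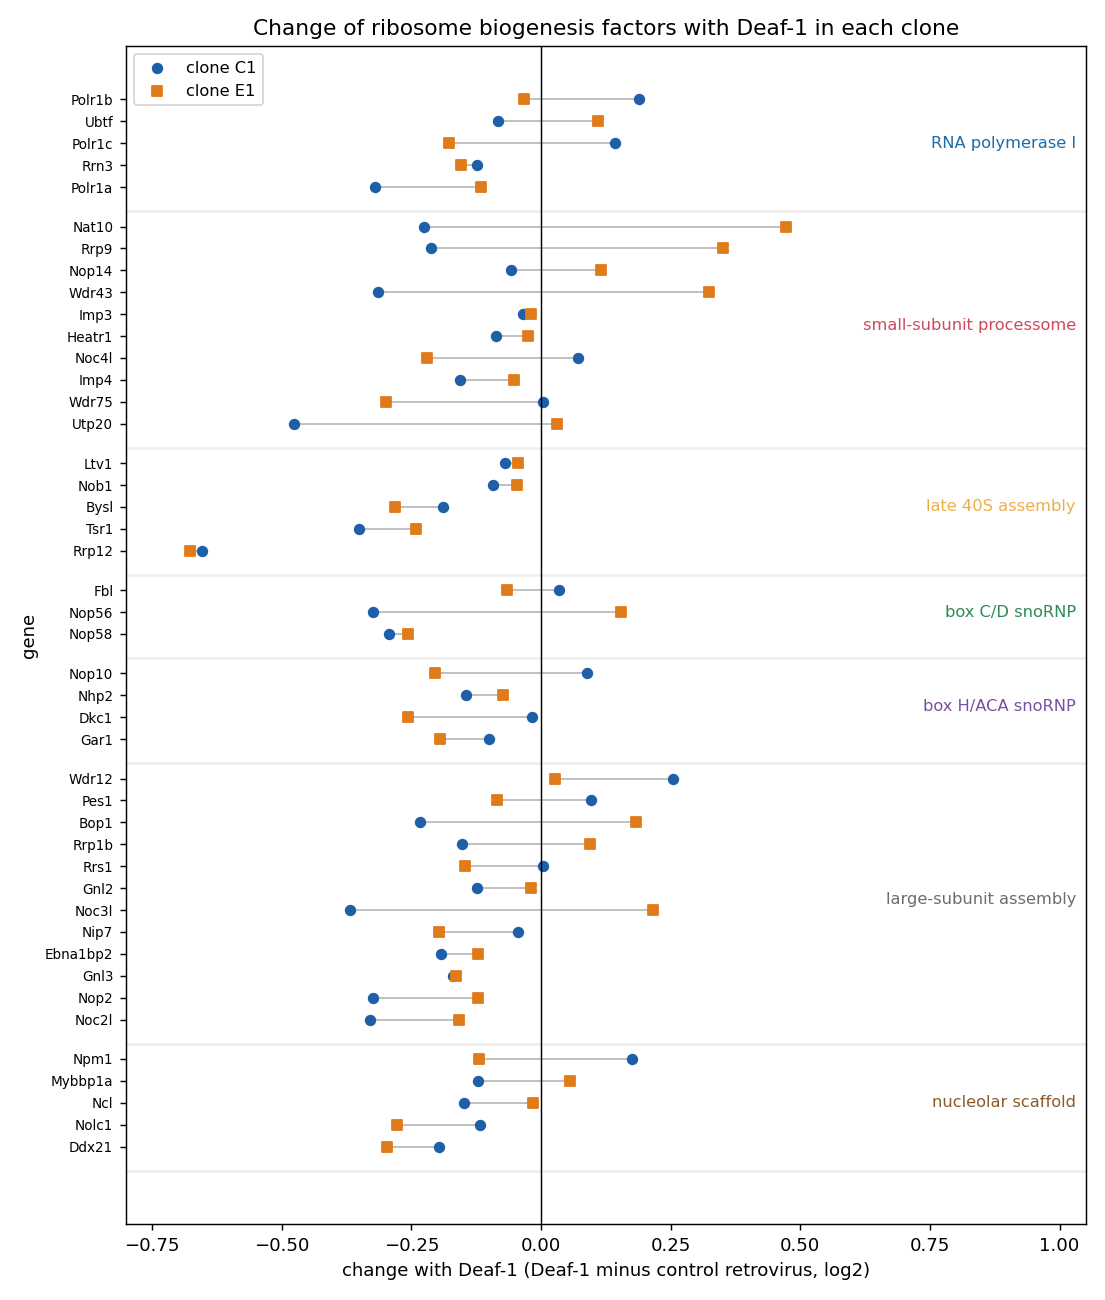
Change with Deaf-1 (Deaf-1 minus control retrovirus, log2) of each of the 44 factors, grouped by role, with 1 circle for clone C1 and 1 square for clone E1. Rrp12 lies farthest to the left in both clones, and all 5 factors of late 40S assembly lie to the left of 0, whereas Nat10, Rrp9, Wdr43 and Noc3l lie on opposite sides of it.

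The 5 factors of late 40S assembly were all lower with Deaf-1 in both clones, with medians of -0.19 (log2) in C1 and -0.24 in E1. Over all genes 20.2% were lower in both clones, and 24.6% of those with a mean of at least 6. Rrp12, which takes part in the export and maturation of pre-ribosomes, had the largest change of the list. It read 5.59 with control and 4.94 with Deaf-1 in C1, and 5.40 with control and 4.72 with Deaf-1 in E1. Both Deaf-1 arrays were below both control arrays, by 1.57-fold in C1 and 1.60-fold in E1. The mean change of -0.66 ± 0.17 (SE, log2) had an unadjusted p of 0.0137 in limma and an adjusted p of 1 over all probe sets. With clone as a block the unadjusted p was 0.00844 and the adjusted p 1, and Rrp12 was then the 1 factor past a p of 0.01, beside 0.044% of all genes. This gene is among those that the study listed from the same arrays, so it is no independent example.

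Tsr1, a GTPase-like protein that holds the late pre-40S particle in an inactive shape, read 7.83 with control and 7.48 with Deaf-1 in C1. In E1 it read 7.70 and 7.46. The Deaf-1 arrays were again below both controls, and the mean change was -0.30 ± 0.15 (SE, log2; unadjusted p = 0.104 in limma). Another probe set of Tsr1, however, went from 6.12 to 6.25 in C1 and from 6.26 to 6.09 in E1. Bysl, which is needed for release of pre-40S particles from the nucleolus, differed with Deaf-1 by -0.19 in C1 and -0.28 in E1, and on another probe set by 0.050 and -0.62. Ltv1, an export adapter of the pre-40S particle, and Nob1, the endonuclease that makes the final cut of 18S ribosomal RNA, differed by -0.093 to -0.045 in either clone.

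For RNA polymerase I the subunits and factors did not move as a unit. Polr1a, the largest subunit, read 6.75 with control and 6.43 with Deaf-1 in C1, and 6.37 and 6.26 in E1. Rrn3, the factor that makes the polymerase competent to initiate, read 7.30 and 7.18 in C1 and 6.66 and 6.51 in E1. Both were lower with Deaf-1 in each clone. Polr1b, the second largest subunit, went from 5.15 to 5.34 in C1 and from 5.42 to 5.38 in E1. Polr1c, a subunit shared with RNA polymerase III, went from 8.42 to 8.57 in C1 and from 8.05 to 7.87 in E1. Ubtf, which bends and marks active ribosomal DNA, went from 7.67 to 7.59 in C1 and from 7.84 to 7.95 in E1. The differences of these latter genes had opposite signs in the clones, and the lowest unadjusted p of the group was 0.323 in limma.

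The small-subunit processome held the factors with the widest gap between the clones. Nat10, an acetyltransferase for RNA, read 5.74 with control and 5.52 with Deaf-1 in C1 but 5.90 and 6.37 in E1. Wdr43, a component of the processome, read 8.16 and 7.85 in C1 but 7.71 and 8.04 in E1. On these probe sets the Deaf-1 culture was lower in C1 and higher in E1, but another probe set of each gene was lower in both clones, with differences of -0.16 in C1 and -0.068 in E1 for Nat10 and of -0.15 and -0.44 for Wdr43. Rrp9, the protein of the U3 particle, went the same way (-0.21 in C1 and 0.35 in E1), as did Noc3l of the large subunit, from 6.41 to 6.04 in C1 and from 5.83 to 6.04 in E1. Another probe set of Noc3l had the opposite signs (0.077 in C1 and -0.14 in E1), and Rrp9 had no other. These 4 factors (9.09%) were lower by at least 0.2 (log2) in C1 and higher by at least 0.2 in E1, as were 8.01% of all genes. At a mean of at least 6 they were 3 of 41 factors and 1.18% of genes. With 1 array for each clone and retrovirus these gaps could not be tested. Utp20 read 7.36 with control and 6.89 with Deaf-1 in C1, the second lowest difference in that clone, and 6.94 and 6.97 in E1. Wdr75 went the other way, from 7.59 to 7.59 in C1 and from 8.25 to 7.95 in E1. Of the 10 processome factors 3 were lower in both clones, and the group median was -0.12 (log2) in C1 and 0.0060 in E1.

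**Figure D2:**
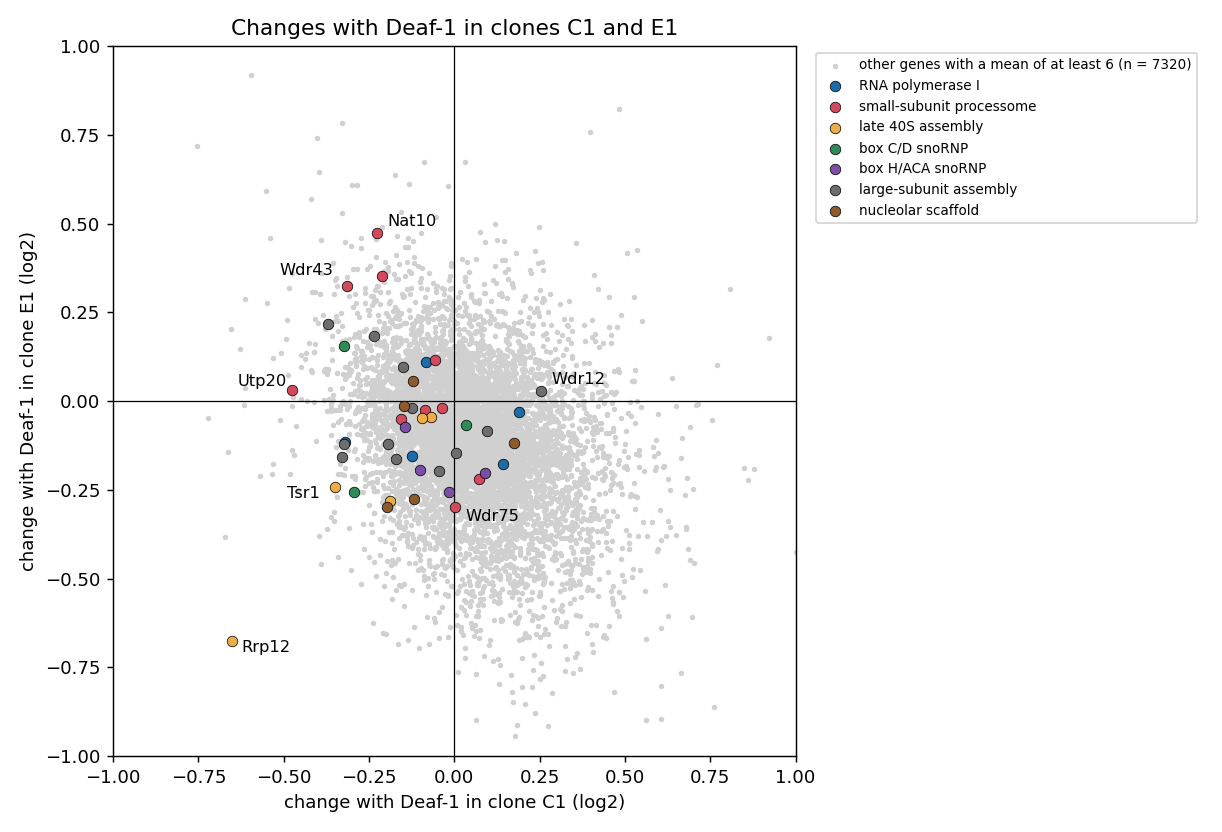
Change with Deaf-1 in clone C1 (horizontal) against that in clone E1 (vertical), both log2, for the 44 factors coloured by role and for 7320 other genes with a mean of at least 6 (10 of these lie beyond the axes). Rrp12 stands at the lower left, and most factors lie left of 0, where C1 was lower with Deaf-1.

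In the particles that modify ribosomal RNA, 3 of 4 box H/ACA proteins and 1 of 3 box C/D proteins were lower with Deaf-1 in both clones. Nop58, a core protein of the box C/D particles, read 8.35 with control and 8.05 with Deaf-1 in C1, and 9.14 and 8.88 in E1. The difference was alike in both clones, but its levels in the clones did not overlap, and the mean change of -0.28 ± 0.40 (SE, log2) was small beside that gap (unadjusted p = 0.530 in limma). Its partner Nop56 differed by -0.32 in C1 and 0.15 in E1, and the methyltransferase Fbl by 0.035 and -0.066. On another probe set Nop56 was lower in both clones (-0.17 and -0.064). Among the H/ACA proteins Dkc1, the pseudouridine synthase, differed by -0.016 in C1 and -0.26 in E1, and Nhp2, Gar1 and Nop10 ranged from -0.20 to 0.089. Other probe sets of Dkc1 were higher with Deaf-1 in C1 (0.22 and 0.57) and lower in E1 (-0.33 and -0.96).

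Of 12 large-subunit factors 6 were lower in both clones and 1 higher. Noc2l, which travels with early pre-60S particles, read 7.21 with control and 6.88 with Deaf-1 in C1, and 7.02 and 6.86 in E1. Nop2, a methyltransferase of 28S ribosomal RNA, differed by -0.32 and -0.12, and Gnl3 (nucleostemin) by -0.17 and -0.16. For these 3 genes both Deaf-1 arrays were below both control arrays. Over the whole list this held for 8 factors (18.2%; Rrp12, Tsr1, Dkc1, Nhp2, Nop2, Gnl3, Ebna1bp2 and Noc2l) and for 7.94% of all genes. The reverse order, both Deaf-1 arrays above both controls, was found for 0 factors and for 8.18% of all genes. At a mean of at least 6 the Deaf-1 arrays were below in 17.1% of factors and 6.37% of genes. They were above in 0 factors and in 2.99% of genes at that level.

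Wdr12, Pes1 and Bop1 form the PeBoW complex of 60S assembly, and the 3 did not move together. Wdr12 read 6.26 with control and 6.51 with Deaf-1 in C1, and 7.41 and 7.44 in E1. Pes1 differed by 0.096 in C1 and -0.085 in E1, and Bop1 by -0.23 and 0.18. Wdr12 was thus the factor higher in both clones, but other probe sets of the gene were below background, and with the mean of all its probe sets its change was -0.24. Of the 5 nucleolar proteins Ncl, Nolc1 and Ddx21 were lower in both clones. Ddx21, an RNA helicase of the nucleolus, read 8.54 with control and 8.34 with Deaf-1 in C1, and 7.78 and 7.48 in E1. Npm1 read 11.1 and 11.3 in C1 and 11.1 and 10.9 in E1, so that its arrays overlapped, and Mybbp1a differed by -0.12 and 0.055. On another probe set each was lower in both clones, by -0.094 and -0.25 for Npm1 and -0.34 and -0.11 for Mybbp1a.

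Promoter sequences are shown for a few of the factors that were lower with Deaf-1 in both clones. They come from RefSeq (build GRCm38.p6), are written 5′ to 3′ along the strand of the gene and end at the last base before its start. Imp4 (chr1:34439579-34439828, plus strand), Nop2 (chr6:125131633-125131882, plus strand) and Rrn3 (chr16:13780449-13780698, plus strand) were chosen as the factors with an E-box, CACGTG, in the 250 bases before the start, and capitals mark the E-boxes.
Imp4: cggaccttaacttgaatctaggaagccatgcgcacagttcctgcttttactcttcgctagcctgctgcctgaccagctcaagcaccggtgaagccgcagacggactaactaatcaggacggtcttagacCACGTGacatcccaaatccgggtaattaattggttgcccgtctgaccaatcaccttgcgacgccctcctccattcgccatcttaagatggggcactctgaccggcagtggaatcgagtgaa
Nop2: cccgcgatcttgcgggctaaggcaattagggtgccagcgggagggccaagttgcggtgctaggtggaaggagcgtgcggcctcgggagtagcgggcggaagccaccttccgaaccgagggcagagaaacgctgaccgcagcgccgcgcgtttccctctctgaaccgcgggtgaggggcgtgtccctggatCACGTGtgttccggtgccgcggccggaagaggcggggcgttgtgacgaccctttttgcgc
Rrn3: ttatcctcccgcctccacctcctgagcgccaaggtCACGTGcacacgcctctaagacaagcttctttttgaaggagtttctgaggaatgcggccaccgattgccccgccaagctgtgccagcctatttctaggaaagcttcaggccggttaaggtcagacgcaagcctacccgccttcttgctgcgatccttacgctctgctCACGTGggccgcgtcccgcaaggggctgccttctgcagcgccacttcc
Bysl (chr17:47611493-47611742, minus strand) was chosen because it holds no E-box but 3 copies of TTCG, the core of sites bound by the fly protein DEAF-1, and capitals mark TTCG or its reverse complement CGAA.
Bysl: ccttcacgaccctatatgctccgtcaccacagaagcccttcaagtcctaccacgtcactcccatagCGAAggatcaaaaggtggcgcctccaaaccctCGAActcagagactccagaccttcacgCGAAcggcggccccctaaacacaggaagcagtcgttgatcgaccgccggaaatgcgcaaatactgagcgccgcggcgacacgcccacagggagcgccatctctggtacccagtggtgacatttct

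Both motifs were counted on either strand in windows of 300 bases (250 before the start and 50 after it), and they cannot overlap each other. RefSeq promoters were given for 39 of the 45 genes, some with more than 1, and a gene was counted if any of its promoters held the motif. An E-box was present in 9 of these genes (23.1%), in 8.09% of all 27025 genes of the table and in 12.4% of the other genes with a mean of at least 6. TTCG was present in 31 genes (79.5%), in 47.7% of all genes of the table and in 67.9% of the other genes at that level. Counted by promoter, an E-box was in 18.8% of the 48 promoters of the factors and 7.15% of all 32851, and TTCG in 77.1% and 44.7%. In promoters of the other genes with a mean of at least 6 the shares were 10.4% and 61.7%. The E-box was as frequent in factors lower with Deaf-1 in both clones (23.8% of 21) as in the remaining measured ones (23.5% of 17). For TTCG the shares were 71.4% and 88.2%. These are matches of letters, and binding was not measured.

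Between the clones the factors differed more than they did with Deaf-1. Ltv1 was 2.19-fold lower in E1 than in C1 and Ddx21 1.76-fold lower, whereas Wdr12 was 2.06-fold higher in E1 and Ncl, the abundant nucleolar protein nucleolin, 1.69-fold higher. Ltv1 read 8.93 and 8.87 on the C1 arrays and 7.79 and 7.75 on the E1 arrays (control, then Deaf-1), a difference of -1.13 ± 0.12 (SE, log2; limma, adjusted p = 0.0113). Wdr12 differed by 1.04 ± 0.14 (limma, adjusted p = 0.0201), but its call was lost with the mean of all its probe sets (0.35). Ncl read 10.6 and 10.5 in C1 and 11.3 on both E1 arrays, a difference of 0.76 ± 0.13 (limma, adjusted p = 0.0321), and Ddx21 differed by -0.81 ± 0.16 (limma, adjusted p = 0.0473). These 4 of 44 factors (9.09%) passed an adjusted p of 0.05, as did 6.76% of all genes, so their share was near that of the array. Both E1 arrays were above both C1 arrays for 11 of 44 factors (against 26.0% of all genes) and below them for 16 (36.4%, against 25.8%). At a mean of at least 6, 22.0% of factors and 31.5% of genes were above, and 39.0% and 39.4% were below. The share below was thus near that of genes of such a level. Among the calls 2 were higher in E1 (4.55% of factors, against 3.46% of all genes) and 2 lower (4.55%, against 3.29%). With retrovirus as a block no factor passed in limma, as against 0.176% of all genes, and 12 had an unadjusted p under 0.05 in place of 16. With any 1 array left out, 1 of the clones held 1 array only, which is too few to judge a call between the clones. After further quantile normalization or cyclic loess 5 factors passed as higher and 3 as lower, while 9.09% or 8.77% of all genes passed in either direction.

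**Figure D3:**
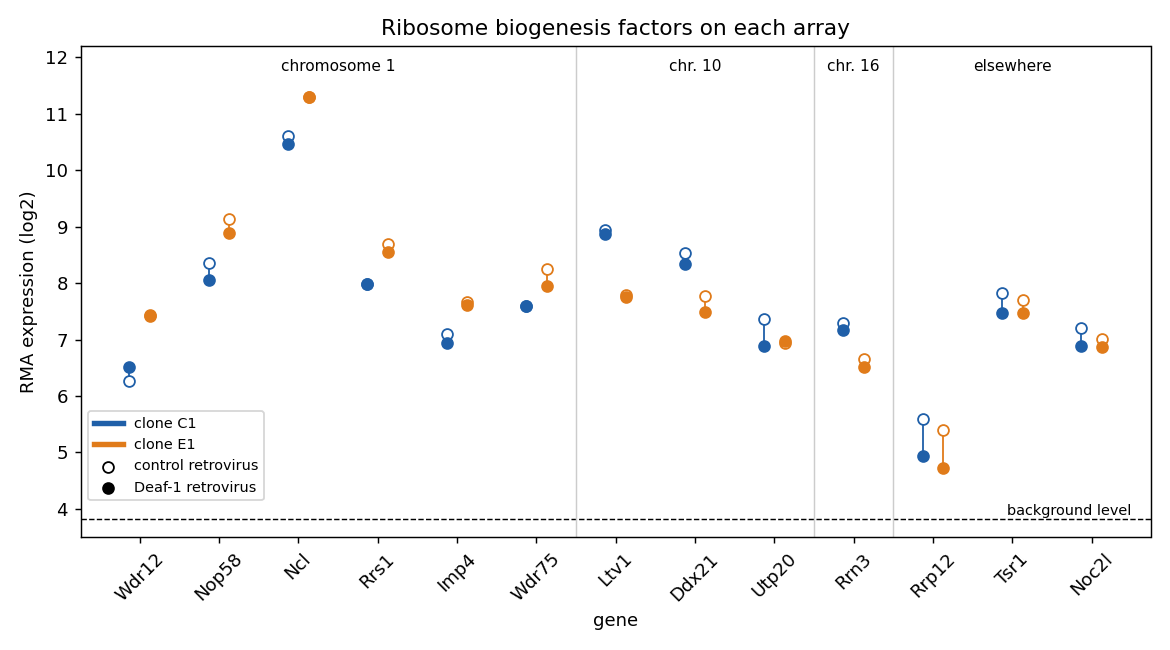
RMA expression (log2) on each of the 4 arrays for 13 factors, with clone C1 in blue and clone E1 in orange, the control retrovirus as open and the Deaf-1 retrovirus as filled circles, and the background level as a dashed line. The 6 factors of chromosome 1 are higher in E1 and Ltv1, Ddx21 and Rrn3 lower, while Rrp12, Tsr1 and Noc2l differ by retrovirus in both clones.

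On the chosen probe sets the difference between the clones tended to follow the chromosome on which a factor lies. Chromosomes were taken from the mouse assembly GRCm38.p6, and the genes below were chosen after their values were seen. All 6 factors on chromosome 1 were higher in E1, namely Wdr12, Nop58, Ncl, Rrs1, Imp4 and Wdr75. For each of them both E1 arrays were above both C1 arrays. Nop58 differed by 0.81 (log2), Rrs1, a factor of 60S assembly, by 0.63, Imp4 of the small-subunit processome by 0.62 and Wdr75 by 0.51. Rrs1 read 7.98 and 7.99 in C1 and 8.69 and 8.54 in E1, and Imp4 read 7.10 and 6.94 in C1 and 7.66 and 7.61 in E1 (control, then Deaf-1). The 3 factors on chromosome 10 were lower in E1: Ltv1, Ddx21 and, with overlapping arrays, Utp20 (-0.17). Rrn3, the 1 factor on chromosome 16, was lower by 0.65 on the log2 scale.

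Other genes of these chromosomes lay the same way. Over 7320 genes with a mean of at least 6, factors left out, the median difference on chromosome 1 was 0.55 (log2), a 1.46-fold higher level in E1, and 93.7% of 429 genes were higher. On chromosome 10 the median was -0.56 and 92.2% of 399 genes were lower, and on chromosome 16 it was -0.56 and 94.8% of 212 genes were lower. The medians of the remaining chromosomes ran from -0.20 to 0.26. The pattern kept its direction under each scaling tried, with medians of 0.52 to 0.59 on chromosome 1 and of -0.59 to -0.52 on chromosomes 10 and 16. DNA was not measured, and whether the number of copies of these chromosomes differs between the clones was not tested.

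**Figure D4:**
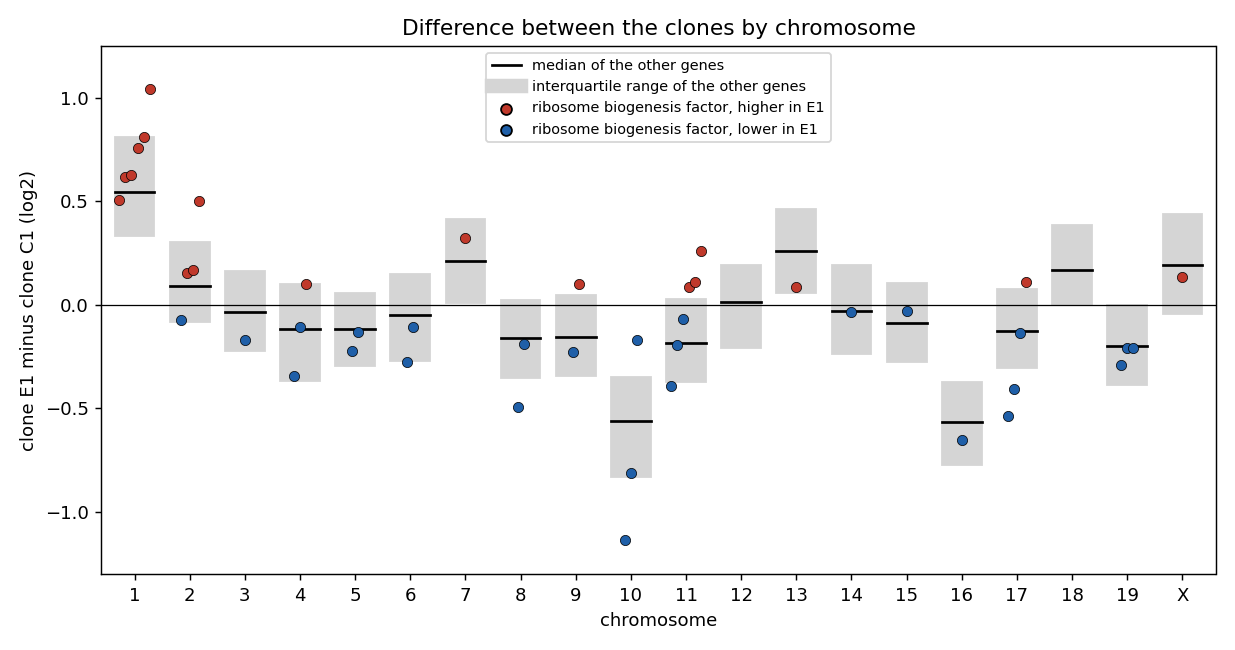
Difference between the clones (E1 minus C1, log2) by chromosome for the 44 factors (points, red where higher in E1 and blue where lower) and for 7320 other genes with a mean of at least 6 (black line for the median, grey box for the interquartile range). The factors of chromosomes 1, 10 and 16 lie to the side of 0 on which the median of their chromosome lies.

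Of 11 factors with a difference of at least 0.5 (log2) in either direction on the chosen probe set, 9 lay on chromosomes 1, 10 or 16. The others were Polr1c (-0.53) and Nat10 (0.50). Among other genes 23.8% differed by as much, and 17.9% of those on the remaining chromosomes. Across the 44 factors the difference and the median of the chromosome correlated with r = 0.857 and rho = 0.716, a description over genes that share 4 arrays. For the 34 factors on other chromosomes r was 0.513. The SD of the differences was 0.42 and became 0.23 once the median of its chromosome was taken off each factor. Ltv1 (-0.57) and Wdr12 (0.49) then still lay farthest from 0, and Rrn3 (-0.088), Imp4 (0.072) and Rrs1 (0.082) lay near it.

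The change with Deaf-1 had no such division. The medians over genes of a chromosome ran from 0.0085 to 0.093 (log2) in C1 and from -0.13 to -0.060 in E1. The 23 factors that were lower in both clones included Imp4, Nop58 and Ncl of chromosome 1, Ltv1 and Ddx21 of chromosome 10 and Rrn3 of chromosome 16. Rrp12 lies on chromosome 19, and the clones differed in it by -0.21 (limma, adjusted p = 0.798).

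A further list held 88 measured factors of the same pathway. With Deaf-1, 31 of them (35.2%) were lower in both clones and 5 (5.68%) higher, and 0 reached an unadjusted p under 0.01 or under 0.05 in limma. Their median change was -0.011 (log2) in C1, nearer to all genes than that of the 44, and -0.10 in E1. At a mean of at least 6 it was 0.023 in C1 and -0.093 in E1, near the 0.039 and -0.092 of all genes at that level. Cd3eap, a subunit of RNA polymerase I, went from 5.94 to 5.58 in C1 and from 6.02 to 5.71 in E1, and Taf1a of the SL1 initiation complex from 6.04 to 5.66 and from 5.74 to 5.47. Nvl, an ATPase of 60S assembly, read higher with Deaf-1 in both clones, 6.25 against 5.77 in C1 and 7.02 against 6.81 in E1. Between the clones 5 (5.68%) passed an adjusted p of 0.05, all lower in E1. Over all genes 6.76% passed in either direction and 3.29% as lower in E1. Among genes with a mean of at least 6 these shares were 11.6% and 5.62%. Pwp2 (-0.73, log2) and Krr1 (-0.87) of the processome and Wdr18 (-0.74) lie on chromosome 10, Rsl1d1 (-0.69) on chromosome 16 and Sbds (-0.87) on chromosome 5. All 5 of the further factors on chromosome 10 were lower in E1, and 4 of 5 on chromosome 1 were higher, with Taf1a as the exception.

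Myc read 7.81 with control and 8.06 with Deaf-1 in C1, and 7.41 and 7.48 in E1. Its difference between the clones was -0.49 (log2), and neither comparison passed its test. Mycn, of the same family, read 12.1 to 12.4 on the 4 arrays and differed with Deaf-1 by -0.043 in C1 and 0.086 in E1. Of 9 measured genes of the Myc family 0 passed either test. Of 18 proliferation genes 13 were higher in E1 and 4 of them passed an adjusted p of 0.05, Rrm2 (1.33, log2), Mki67 (0.96), Aurka (0.80) and Plk1 (0.72). Over all genes 9575 of 18193 were higher in E1, and 3289 of 7361 at a mean of at least 6. Calls higher in E1 made up 3.46% of all genes and 5.99% of those with a mean of at least 6. The median of the proliferation list was 0.30 between the clones and that of the 44 factors -0.089. With Deaf-1 the proliferation genes had medians of -0.019 in C1 and -0.029 in E1.

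Most factors had more than 1 probe set, and the other probe sets bore on both patterns. For 31 factors there were 47 other probe sets, of which 38 were above background by their mean. Of these 31 had the same sign of the clone difference as the chosen probe set. With Deaf-1, 18 of the 38 were lower in both clones, 1 was higher in both, 16 were higher in C1 and lower in E1, and 3 were lower in C1 and higher in E1. Another probe set of Ddx21 differed with Deaf-1 by -0.16 in C1 and 0.034 in E1, one of Noc2l by -0.059 and 0.12, and one of Ubtf by -0.090 and -0.28. Ncl was higher in E1 by 0.64 to 0.86 (log2) on 3 further probe sets, while on another, close to background, the difference was -0.20. Imp4 had a probe set with a larger change than the chosen one, from 6.21 to 5.83 in C1 and from 6.26 to 5.59 in E1, on which the clones differed by -0.093.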

How the data were processed

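RNA of clones C1 and E1 with each retrovirus was hybridised to 4 Affymetrix mouse expression arrays. The authors deposited log2 values made with RMA, which corrects background, brings the arrays to 1 distribution and summarises each probe set (values 1.75 to 13.6). Submitters' processing notes name RMA and limma without versions. Replicates were not pooled. No array was normalized again for the main values. Raw scans were not used here. Precision is limited by how few arrays there are.

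Of 45101 probe sets 64 control ones were left out. lmFit and eBayes of limma 3.58.1 (R 4.3.3), two-sided, were fitted over 45037 probe sets for Deaf-1 against control (called at an unadjusted p under 0.01, the study's threshold) and for E1 against C1 (Benjamini-Hochberg adjusted p under 0.05). Clones, or retroviruses, served as replicates, which leaves 2 residual degrees of freedom. The p-values measure only the spread between these arrays. Clone pairs the arrays as the same cell line (correlation of deviations within a clone 0.54), and clone as a block was an alternative. Symbols came from the array's annotation, where 34945 probe sets had 1. The background level was the 95th percentile of 44 olfactory receptor probe sets. The script was tested on simulated data, which checks the code and not the error rate on these arrays.

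Members, gene lists, motifs and tests were chosen with earlier results of these data known. Named were Rrp12, the members with the lowest or highest change among those alike in both clones, those past the call between clones, the 3 with the widest gap between the changes in each direction, and the RNA polymerase I genes. Alternatives were the blocks, each array left out, filters at background and at a mean of 6, cyclic loess, a further quantile normalization or median centring of the arrays, a prior with trend or a robust one, no _x_at or _s_at probe sets, and the mean of a gene's probe sets. Clone as a block with the background filter was added after seeing the data.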

Additional observations from a re-analysis of the deposited data

Results flagged for a closer look

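For 4 factors the culture with Deaf-1 was lower than its control by at least 0.2 (log2) in clone C1 and higher by at least as much in clone E1. The change in E1 minus that in C1 was 0.70 for Nat10, 0.64 for Wdr43, 0.59 for Noc3l and 0.56 for Rrp9. The difference was not tested, since each clone and retrovirus has 1 array. Over all genes 8.01% met the same criterion, and 1.18% of those with a mean of at least 6. Rrp9 has 1 probe set. For the other genes a further probe set above background did not meet the criterion, at -0.16 in C1 and -0.068 in E1 for Nat10, -0.15 and -0.44 for Wdr43, and 0.077 and -0.14 for Noc3l.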

How the results depend on the processing

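The count of factors past an unadjusted p of 0.01 with Deaf-1 was 0 in all settings but clone as a block, where it was 1 (Rrp12); with the block and the background filter together it was 0, and Rrp12 was lower in each setting that kept it. The block left the changes as they were and altered no other call. The median change of the factors, -0.075 (log2), became -0.043 after cyclic loess and -0.12 with the mean of all probe sets. With 1 array left out it ran from -0.13 to -0.059, but those fits compare unequal mixes of the clones. The median in C1 was -0.17 after further quantile normalization and -0.070 after median centring. In E1 it was 0.011, -0.18 and 0.0026 after quantile normalization, median centring and cyclic loess, and -0.16 with the mean of all probe sets. Factors higher in both clones numbered 4, 0, 3, 2 and 0 after quantile normalization, median centring, cyclic loess, without _x_at and _s_at probe sets and with the mean of all probe sets. The count lower in both clones was 16 to 25. Wdr12 turned to -0.24 with the mean of all probe sets.

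Between the clones, 4 factors passed. The count was 0 with retrovirus as a block, and it was not read with 1 array left out. In the counts that follow, the share of all genes tested that passed in the same setting is in brackets. It was 8 for probe sets above background (14.7%) and 12 of 41 at a mean of at least 6 (31.8%). After quantile normalization it was 8 (9.09%), after cyclic loess 8 (8.77%) and after median centring 5 (6.83%). With an intensity trend it was 11 (11.9%) and with a robust prior 3, without Ddx21 (6.35%). The mean of all probe sets gave 7, without Wdr12 (8.29%). Filters leave fewer tests; for the other settings the cause was not tested. The median between clones ran from -0.15 to 0.056 with 1 array left out. Signs turned with 1 array left out for Nop58 (-0.69 to 0.14), Ddx21 (-0.68 to 0.18) and Wdr12 (-0.44 to 0.72) with Deaf-1, and for Utp20 (-0.41 to 0.067) between clones.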
